A study of Homo sapiens with 6 samples.

Results

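NFE2L2, which encodes the transcription factor NRF2, and 9 genes of its pathway were followed in RNA-seq data of Huh7SR cells, a sorafenib-resistant pool of the human hepatocellular carcinoma cell line Huh7. The genes were chosen by symbol: NFE2L2 and KEAP1 for the control of the pathway, GCLC, GCLM and GSR for the synthesis and recycling of glutathione, TXN, TXNRD1 and SRXN1 for the thioredoxin system, and HMOX1 and OSGIN1 as further target genes. All 10 symbols were found among the 16305 genes in the files, each on 1 row. The cells received fostamatinib, an inhibitor of spleen tyrosine kinase (SYK), at 2 µM for 24 h in 3 samples, or the solvent DMSO for 24 h in 3 samples (the labels write 2 µM for these as well). The authors of these data did not detect SYK protein in Huh7 cells, and their paper proposes that the drug acts through other targets. All 6 samples are of the resistant pool, so parental Huh7 cells enter no comparison here. The comparison asks how the resistant cells' transcripts differ after the drug.

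NRF2 drives the genes that make, recycle and use the cell's thiol antioxidants. In unstressed cells the adaptor KEAP1 holds NRF2 and delivers it to the CUL3 ubiquitin ligase, and oxidants or electrophiles that modify KEAP1 let NRF2 accumulate, pair with a small MAF protein and bind antioxidant response elements. NRF2 is thus controlled mainly at the level of the protein, which RNA-seq does not measure. In liver and liver cancer the pathway is known for detoxification and for protection from drugs and oxidative stress.

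The antioxidant response element has the core TGACNNNGC, and short stretches of the genes that hold it are shown because NRF2 binds this element. A match alone does not make a gene a target. Both strands were searched. RefSeq promoter windows of GRCh38.p14, from 250 bases before to 50 after a transcript's start, were found for 8 of the 10 genes (11 windows), with none for GSR and HMOX1. The core occurred in 4 of these 11 windows, against 13.4% of all 35116 promoter windows. It occurred there 6 times, in windows of 3 genes, GCLM, KEAP1 and TXNRD1 (1 match, in TXNRD1, crosses the start and is not shown). Positions are counted from the first transcribed base as 0. A stricter form, TGACTCAGC, which is a case of the same core and also holds the AP-1 motif TGACTCA, was searched over the 5000 bases before the canonical start in GRCh37. It occurred before 2 of the 10 genes, GCLC and HMOX1, and before 6.48% of the 12617 protein-coding genes in the files. The looser core occurred in that longer stretch for 9 of the 10 genes (all but SRXN1) and for 84.2% of all, so a match in that stretch is common. Capitals mark the match on the gene's strand (GCTGAGTCA is the reverse complement of TGACTCAGC, and GCTTAGTCA that of TGACTAAGC), with 10 bases on each side.
GCLM, from -34 to -26 of the start, in the window chr1:93909381-93909680, - strand: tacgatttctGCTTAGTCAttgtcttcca
KEAP1, from -31 to -23 of the start, in the window chr19:10502722-10503021, - strand: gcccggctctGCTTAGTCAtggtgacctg
KEAP1, from -54 to -46, in the same window: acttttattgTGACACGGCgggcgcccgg
TXNRD1, from -99 to -91 of the start, in the window chr12:104215529-104215828, + strand: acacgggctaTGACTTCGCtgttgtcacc
TXNRD1, from -102 to -94 of another start, in the window chr12:104286782-104287081, + strand: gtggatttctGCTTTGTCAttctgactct
GCLC, 3156 bases before the start, match at chr6:53413047-53413055 of GRCh37, - strand, in an intron of longer annotated transcripts: cgcacaaagcGCTGAGTCAcggggaggcg
HMOX1, 3940 bases before the start, match at chr22:35773149-35773157 of GRCh37, + strand, outside the gene: gctagattttGCTGAGTCAccagtgcctc
These matches are letters in a window and no binding was measured. GCLM and KEAP1 carry the same 9 letters close to the start. Whether any of the matches has a part in the changes given below was not tested.

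Depth was even across the samples. The deposited values are log2 CPM, that is, log2 of counts per 1000000 reads with 0.5 added to each count, and they could be turned back into whole reads (100% of values within 0.05 of a whole number). The samples held 13303451 to 15272737 reads on the genes in the files. As a check for copied libraries, the reads of each pair of samples were compared by chi-square over its degrees of freedom, where 1 is pure counting error. Pairs within a group gave 1.65 to 3.74 and pairs across the groups 39.8 to 44.5, so all 6 libraries were kept apart. The labels speak of triplicate treatment but do not say whether these were separate cultures, so p-values measure the spread between these samples, which may be technical. Of the hepatocyte markers all 8 were present and all 8 were called higher after fostamatinib, against 23.3% of all genes. Their median log2 fold change was 0.60, from 0.29 for ALB (albumin) to 3.19 for APOA1, which averaged 21.7 reads in DMSO. Their summed level was 4071 to 4327 CPM in DMSO and 5634 to 5915 CPM after the drug. Of 6 leukocyte markers only LYZ and CD14 were among the genes in the files (9.83 to 11.2 CPM in DMSO and 9.67 to 11.7 CPM after fostamatinib). Of 5 endothelial markers only PECAM1 was (6.13 to 6.96 and 8.76 to 9.93 CPM). Of 6 fibroblast markers 4 were, 149.0 to 153.7 CPM in DMSO and 192.7 to 199.7 CPM after fostamatinib, nearly all of it COL1A2. The 5 cholangiocyte markers, mainly KRT19, summed to 258.1 to 276.4 and 290.2 to 299.4 CPM, but by gene 1 (KRT19, 0.25 on the log2 scale) was higher, 2 were lower (SPP1, -1.82, and SOX9, -0.47) and 2 did not pass, with a median of -0.47. The part of these shifts in the results below was not tested. All 6 samples are of 1 cell line, so markers of other cell types do not stand for such cells here. In bulk RNA, a shift in the share of cells within the resistant pool and a change of RNA per cell cannot be told apart.

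Set against transcript length, TXNRD1 and TXN stood highest. In reads per kilobase of the canonical transcript and per 1000000 reads (RPKM), TXNRD1, the selenoprotein that reduces thioredoxin with NADPH, stood first with 602.3 ± 6.2 RPKM (SD, n = 3) in DMSO. Thioredoxin itself, TXN, came next with 502.8 ± 17.5 RPKM (SD, n = 3). NFE2L2 followed at 136.6 ± 1.6 RPKM and GSR, glutathione reductase, at 94.4 ± 1.2 RPKM (SD, n = 3 each). KEAP1 (29.8 ± 1.4 RPKM) and GCLC (28.3 ± 0.40 RPKM) were close, and their DMSO samples overlapped. OSGIN1 (23.4 ± 1.3 RPKM) and HMOX1 (21.2 ± 1.1 RPKM) overlapped as well. GCLM stood at 12.4 ± 1.1 RPKM and SRXN1 at 0.399 ± 0.078 RPKM (SD, n = 3). The order was the same after fostamatinib except that GCLC, at 35.7 ± 0.46 RPKM, passed KEAP1, at 33.0 ± 1.2 RPKM (SD, n = 3). Of the SRXN1 exon bases 90.7% lie also in exons of another protein-coding gene on the same strand, ENSG00000270299, and the way reads on shared exons were counted is not given in the sources used here, so the 13 to 18 reads of SRXN1 are no measure of its level.

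**Figure D1:**
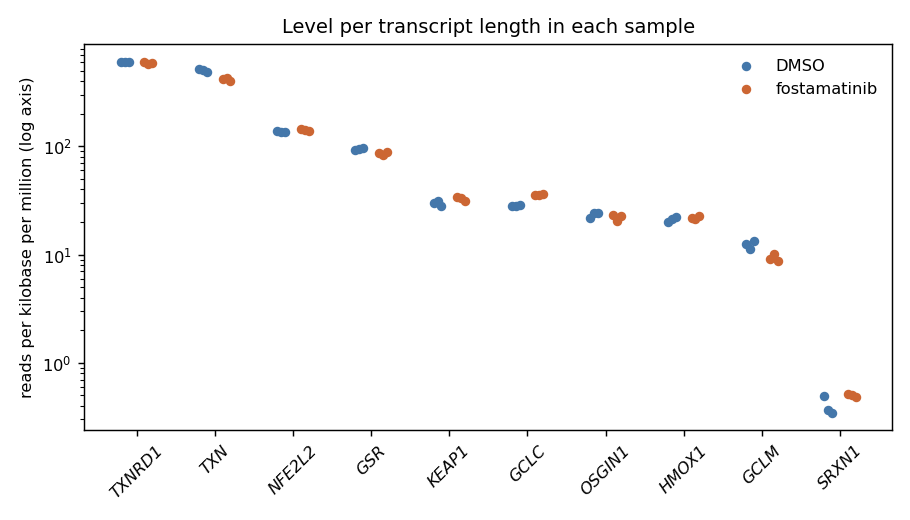
RPKM on the canonical transcript (log axis) for the 10 genes in each of the 3 DMSO and 3 fostamatinib samples, ordered by the DMSO mean. TXNRD1 and TXN lead at 602.3 and 502.8 RPKM in DMSO, and SRXN1 is lowest at 0.399 RPKM, from 13 to 18 reads a sample. These reads are no measure of the SRXN1 level, since most of its exon bases are shared with another gene.

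In the limma fit over all 16305 genes 5 of the 10 passed at an adjusted p under 0.05 (Benjamini-Hochberg), against 47.8% of all genes. GCLC and KEAP1 rose, 2 of 10 against 23.3% of all genes, and GCLM, TXN and GSR fell, 3 of 10 against 24.5%. NFE2L2, HMOX1, TXNRD1, OSGIN1 and SRXN1 did not pass. The 3 fostamatinib samples lay wholly above or below the 3 DMSO samples in 6 of the 10 genes (the 5 above and NFE2L2), against 54.1% of all genes. The changes were small. The log2 fold changes ran from -0.42 to 0.34 with a median of 0.016, and the median absolute change was 0.13 against 0.27 over all genes tested. Apart from SRXN1 each gene averaged 400 reads or more. Among the 6639 genes with that depth (a limit set after the values were seen) 65.5% were called, with a median absolute change of 0.19, and 5 of the 9 genes here were.

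**Figure D2:**
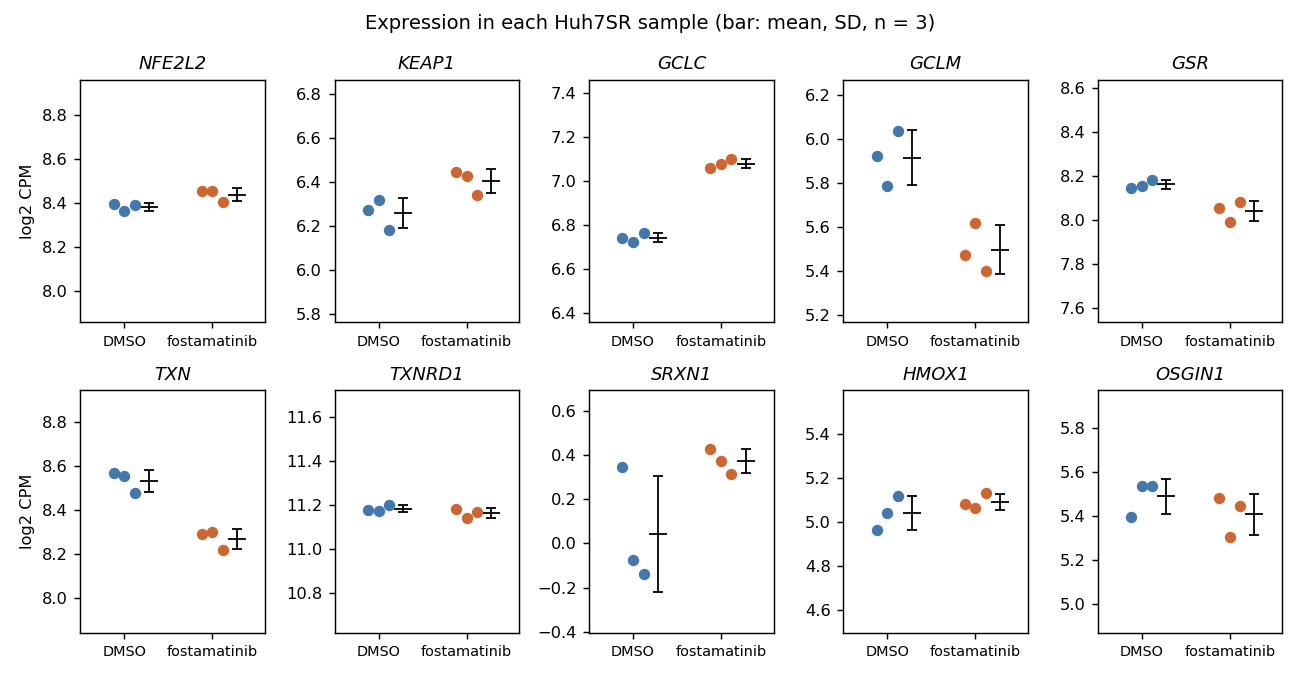
Deposited log2 CPM of each of the 10 genes in each sample, with the mean and SD of the 3 samples of a group beside the points. Every panel spans the same number of log2 units. GCLC separates upward (6.74 to 7.08 on average), GCLM and TXN downward, while the mean of NFE2L2 moves by 0.054, that of HMOX1 by 0.052 and that of TXNRD1 by -0.020.

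Of the controllers of the pathway, NFE2L2 did not pass the test and KEAP1 rose slightly. NFE2L2 (ENSG00000116044, chromosome 2 of GRCh37 from 178083395 to 178257484, - strand) measured 8.40, 8.36 and 8.39 log2 CPM in the DMSO samples and 8.46, 8.45 and 8.40 log2 CPM after fostamatinib. The fostamatinib samples were all higher, but the lowest of them almost touched the highest DMSO sample. The means were 8.38 ± 0.017 and 8.44 ± 0.030 log2 CPM (SD, n = 3 each), a log2 fold change of 0.054 (95% interval -0.020 to 0.13, adjusted p = 0.227, limma). Annotated exons of NFE2L2 overlap those of the lncRNA ENSG00000213963 on the same strand (13.6% of its exon bases) and of HNRNPA3 on the other (23.4%).

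KEAP1 (ENSG00000079999, chromosome 19 from 10596801 to 10614234, - strand) measured 6.27, 6.32 and 6.18 log2 CPM in DMSO and 6.44, 6.42 and 6.34 log2 CPM after fostamatinib. The highest DMSO sample and the lowest fostamatinib sample were 6.32 and 6.34 log2 CPM, so the groups parted by a narrow margin. The log2 fold change was 0.15 (standard error, SE, 0.052, limma adjusted p = 0.0188). This call rested on single samples and on the model, with an adjusted p of 0.0773 without DMSO replicate 3, 0.0866 without Fostamatinib replicate 1, 0.0768 without Fostamatinib replicate 2 and 0.103 without limma's mean-variance trend. The log2 ratio of NFE2L2 to KEAP1 reads was 2.12, 2.05 and 2.21 in DMSO and 2.01, 2.03 and 2.06 after fostamatinib. The groups overlapped, and the difference of -0.091 had an exact permutation p of 0.20 (two-sided, smallest possible 0.10, adjusted over 3 ratios 0.20).

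The subunits of glutamate-cysteine ligase, the rate-limiting enzyme of glutathione synthesis, moved in opposite directions. GCLC, the catalytic subunit (ENSG00000001084, chromosome 6 from 53362139 to 53481768, - strand), had 1474, 1610 and 1613 reads in DMSO and 1836, 1927 and 1815 reads after fostamatinib. In log2 CPM these were 6.74, 6.72 and 6.76 against 7.06, 7.08 and 7.10, tight within each group and far apart between them. GCLC rose by 0.34 on the log2 scale, or 26.4% (SE 0.044, limma adjusted p = 6.04e-08). Of its annotated exon bases 6.14% are shared with a lncRNA on the same strand and 3.54% with the antisense GCLC-AS1.

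GCLM, the modifier subunit that raises the catalytic subunit's affinity for glutamate (ENSG00000023909, chromosome 1 from 94350755 to 94375012, - strand), had 837, 842 and 975 reads in DMSO and 611, 700 and 560 reads after fostamatinib. In log2 CPM these were 5.93, 5.79 and 6.04 against 5.47, 5.62 and 5.40, with a wider spread than GCLC in both groups but no overlap. GCLM fell by 0.42 on the log2 scale (SE 0.064, limma adjusted p = 1.35e-06), to 0.749 of the DMSO level. It was the largest change of the 10 genes in size, and 32.9% of all genes tested changed at least as much.

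The log2 ratio of GCLC to GCLM reads was 0.82, 0.93 and 0.73 in DMSO and 1.59, 1.46 and 1.70 after fostamatinib. Every fostamatinib sample was above every DMSO sample, and the difference was 0.76 (two-sided exact permutation p of 0.10, the smallest that 3 against 3 can give, adjusted over 3 ratios 0.15). GCLC alone was higher and GCLM alone lower in every fostamatinib sample. The separation of the ratio and its p therefore follow from the 2 genes and are no further support. Since both counts come from the same library, this ratio does not depend on the scaling between samples. Per transcript length, GCLC stood at 2.29 ± 0.17 times GCLM in DMSO and at 3.87 ± 0.32 times after fostamatinib (SD, n = 3 each).

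GSR, which reduces oxidized glutathione with NADPH (ENSG00000104687, chromosome 8 from 30535583 to 30585363, - strand), measured 8.15, 8.16 and 8.18 log2 CPM in DMSO and 8.06, 7.99 and 8.08 log2 CPM after fostamatinib. All fostamatinib samples were lower, by a small amount. GSR fell by 0.12 on the log2 scale (SE 0.038, limma adjusted p = 0.00964). Without Fostamatinib replicate 2 the adjusted p was 0.095, and without the mean-variance trend it was 0.0912.

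**Figure D3:**
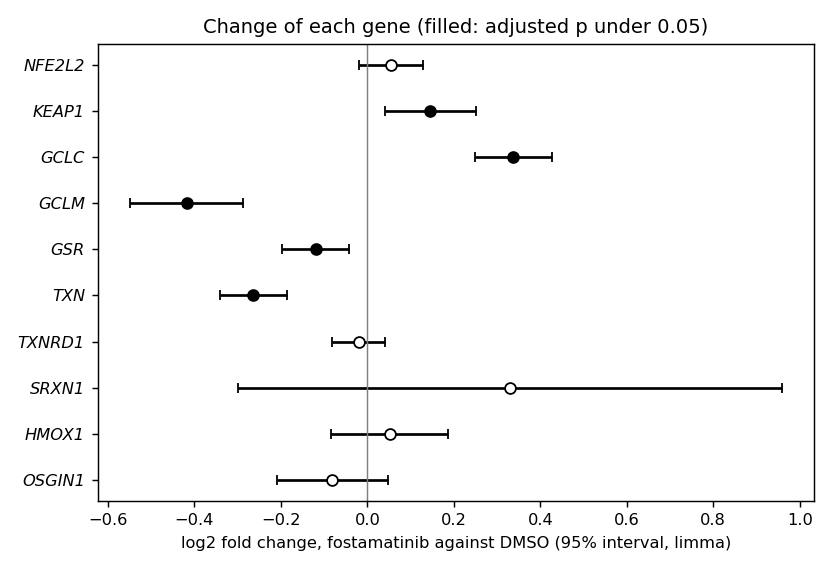
Log2 fold change of each gene, fostamatinib against DMSO, with its 95% interval from limma (filled points: adjusted p under 0.05). GCLC (0.34) and GCLM (-0.42) lie on opposite sides of 0, TXN at -0.26, and the interval of SRXN1 is the widest, from -0.30 to 0.96.

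In the thioredoxin system the substrate fell and its reductase did not pass the test. TXN, the small dithiol protein that reduces disulfides in peroxiredoxins and other targets (ENSG00000136810, chromosome 9 from 113006090 to 113018787, - strand), had 5232, 5742 and 5288 reads in DMSO and 4304, 4493 and 3942 reads after fostamatinib. In log2 CPM these were 8.57, 8.56 and 8.48 against 8.29, 8.30 and 8.22, without overlap. TXN fell by 0.26 on the log2 scale (SE 0.038, limma adjusted p = 4.22e-07). Of the 50-base windows of its transcript 5.52% occur also in transcripts of the pseudogenes TXNP4, TXNP5 and TXNP6, so reads on them are uncertain.

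TXNRD1 (ENSG00000198431, chromosome 12 from 104609557 to 104744085, + strand) was the most covered of the 10 genes, with 30522 to 35213 reads a sample. It measured 11.18, 11.17 and 11.20 log2 CPM in DMSO and 11.18, 11.14 and 11.17 log2 CPM after fostamatinib, and the groups overlapped. The log2 fold change was -0.020 (95% interval -0.082 to 0.041, adjusted p = 0.608, limma), an interval narrower than that of any other of the 10 genes. The log2 ratio of TXNRD1 to TXN reads was 2.61, 2.62 and 2.73 in DMSO and 2.89, 2.84 and 2.95 after fostamatinib. The groups did not overlap, with a difference of 0.24 (two-sided exact permutation p of 0.10, the smallest possible, adjusted over 3 ratios 0.15). TXN alone was lower in every fostamatinib sample while TXNRD1 was nearly level. The separation of this ratio and its p therefore follow from TXN and are no further support.

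SRXN1, sulfiredoxin, which repairs over-oxidized peroxiredoxins (ENSG00000271303, chromosome 20 from 627259 to 633844, - strand), had 17, 14 and 13 reads in DMSO and 18, 18 and 16 reads after fostamatinib. Most of its exon bases are shared with ENSG00000270299, as given above, so these reads are no measure of its level. With counts this low a difference was not detectable (log2 fold change 0.33, 95% interval -0.30 to 0.96, adjusted p = 0.404, limma).

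**Figure D4:**
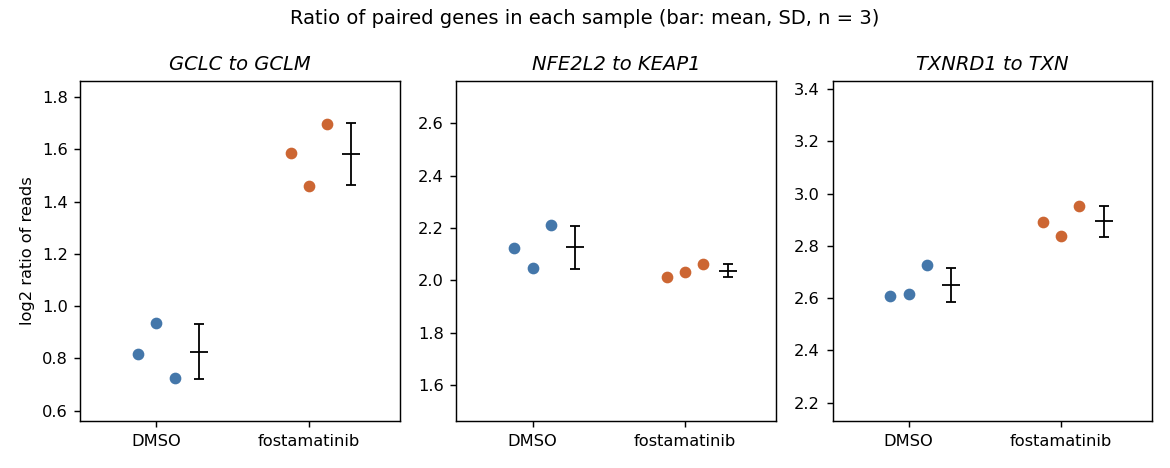
Log2 ratio of reads of GCLC to GCLM, NFE2L2 to KEAP1 and TXNRD1 to TXN in each sample, with the mean and SD of 3 samples beside the points and the same span of log2 units in every panel. The first ratio shifts by 0.76 and the third by 0.24 with no overlap of the groups, while NFE2L2 to KEAP1 overlaps. In the first, the separation follows from the opposite changes of GCLC and GCLM, and in the third from the fall of TXN.

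The remaining target genes did not pass the test. HMOX1, the inducible heme oxygenase (ENSG00000100292, chromosome 22 from 35776354 to 35790207, + strand), measured 4.96, 5.04 and 5.12 log2 CPM in DMSO and 5.08, 5.06 and 5.13 log2 CPM after fostamatinib. The values are interleaved, and the log2 fold change was 0.052 (95% interval -0.084 to 0.19, adjusted p = 0.553, limma). OSGIN1, an oxidative stress-induced growth inhibitor (ENSG00000140961, chromosome 16 from 83964916 to 83999937, + strand), measured 5.40, 5.53 and 5.54 log2 CPM in DMSO and 5.48, 5.30 and 5.44 log2 CPM after fostamatinib. Of its exon bases 8.22% are shared with MLYCD on the same strand. The groups overlapped too, with a log2 fold change of -0.081 (95% interval -0.21 to 0.048, adjusted p = 0.31, limma).

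The genes whose 6 values lay nearest to those of NFE2L2 were GNPDA1, SRP14 and ATF2, at Euclidean distances of 0.041, 0.043 and 0.045 log2 units over the 6 samples after each gene was centred on its own mean, among 11484 genes that averaged 50 reads or more. Like NFE2L2 they were nearly level, which follows from their choice by these same values, with log2 fold changes of 0.056, 0.081 and 0.035.

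Larger changes than those of the 10 genes were found among genes related to them. Across 6 lists of related genes 56 of the 76 tested had an adjusted p under 0.05 (73.7%, against 47.8% of all genes), 26 higher and 30 lower, with a median log2 fold change of -0.016 against 0.0015 over all genes. Of the 58 of them that averaged 400 reads or more 43 were called (74.1%, against 65.5% of all genes at that depth). The lists were chosen with earlier results of these data known, so these shares cannot show that related genes respond more than others. Of all genes tested 23.3% were called higher and 24.5% lower, and the counts by list below stand beside these shares. By list, 50% (the sulfiredoxin substrates) to 88.9% (glutathione supply and breakdown) were called. The lists differ in direction, and each is given as a description without a test of its own.

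Among partners and regulators of NRF2, 4 of 13 rose, 7 fell and 2 did not pass, with a median log2 fold change of -0.36. The largest fall was that of MAFF, a small MAF protein that pairs with NRF2, from 341, 347 and 310 reads to 123, 99 and 150 (log2 fold change -1.35, adjusted p = 7.03e-12, limma). NFE2L3, a relative of NRF2, fell by 0.91 and BACH1, the repressor that competes with NRF2 at HMOX1 and other genes, by 0.48 on the log2 scale. The rises were small, 0.16 for BTRC, a ubiquitin ligase adaptor that also targets NRF2, 0.15 for DPP3, a KEAP1-binding peptidase, and 0.14 for MAFK. Reads of DPP3 are in part uncertain, since 7.47% of its 50-base windows are shared with other genes, as are 5.39% of those of NFE2L3.

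Other NRF2 target genes went both ways. Of 22 listed 21 were tested, and 10 rose, 5 fell and 6 did not pass, with a median of 0.063. The largest rises among genes with enough reads were those of the conjugate export pumps ABCC2 (0.86 on the log2 scale, from 473, 473 and 509 to 817, 851 and 819 reads) and ABCC3 (0.71) and of FTL, the ferritin light chain (0.52). The last shares 18.5% of its windows with its pseudogenes. Within this list the largest falls were those of ME1, malic enzyme, which supplies NADPH (-0.50), ABCC4, another export pump (-0.49), and SLC48A1, a heme transporter (-0.26). SLC7A11, which fell by 1.76, was counted with glutathione supply below and not here. NQO1, a quinone reductase widely used as a marker of NRF2 activity and named here after its values were seen, rose by 0.49 (SE 0.035, limma adjusted p = 5.55e-14). Whether NRF2 had a part in this rise was not tested. NQO1, ABCC2, ABCC3 and FTL thus rose in the same samples in which ME1 and ABCC4 fell, and in which HMOX1 and TXNRD1 had log2 fold changes of 0.052 and -0.020 without passing the test.

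The widest changes were in the supply and breakdown of glutathione, where 6 of 18 genes rose, 10 fell and 2 did not pass (median -0.42). CHAC1, which cleaves glutathione inside the cell, fell from 424, 468 and 382 reads to 22, 19 and 19 (log2 fold change -4.28, adjusted p = 7.16e-24, limma). SLC7A11, the cystine importer that supplies cysteine for glutathione, fell from 812, 840 and 868 reads to 209, 252 and 241 (log2 fold change -1.76, SE 0.073, limma adjusted p = 1.05e-20). SLC1A4, a neutral amino acid transporter, fell by 1.87 on the log2 scale. CTH and CBS, the enzymes that make cysteine from homocysteine (both named after their values were seen), had log2 fold changes of -1.69 and -0.99. LANCL1, a glutathione-binding protein, rose from 462, 468 and 525 reads to 1346, 1557 and 1378 (log2 fold change 1.64, adjusted p = 2.01e-22, limma). ANPEP, a surface aminopeptidase that acts on the products of glutathione breakdown, rose by 0.93, and OPLAH, which opens 5-oxoproline, by 0.51. The remaining rises, also named after their values were seen, were GGT1 (0.49), GGT7 (0.35) and GSS, glutathione synthetase (0.13).

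In the thioredoxin and glutaredoxin list 1 of 15 genes rose, 8 fell and 6 did not pass (median -0.19). The rise was that of TXN2, the mitochondrial thioredoxin (0.20, adjusted p = 0.0061, limma), opposite in sign to cytosolic TXN. The glutaredoxins GLRX and GLRX2, which use glutathione to reduce disulfides, fell by 0.91 and 0.79, and SESN2, a stress-induced sestrin, by 0.64 on the log2 scale. Of the 4 peroxiredoxins that sulfiredoxin repairs, 2 rose, PRDX1 by 0.24 and PRDX2 by 0.23, and PRDX3 and PRDX4 did not pass, at 0.063 and 0.0091. Of 5 genes of heme turnover 3 rose, POR by 0.30, BLVRB by 0.21 and HMOX2, the constitutive heme oxygenase, by 0.20, none fell, and BLVRA and ALAS1 did not pass, at 0.065 and 0.069.

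**Figure D5:**
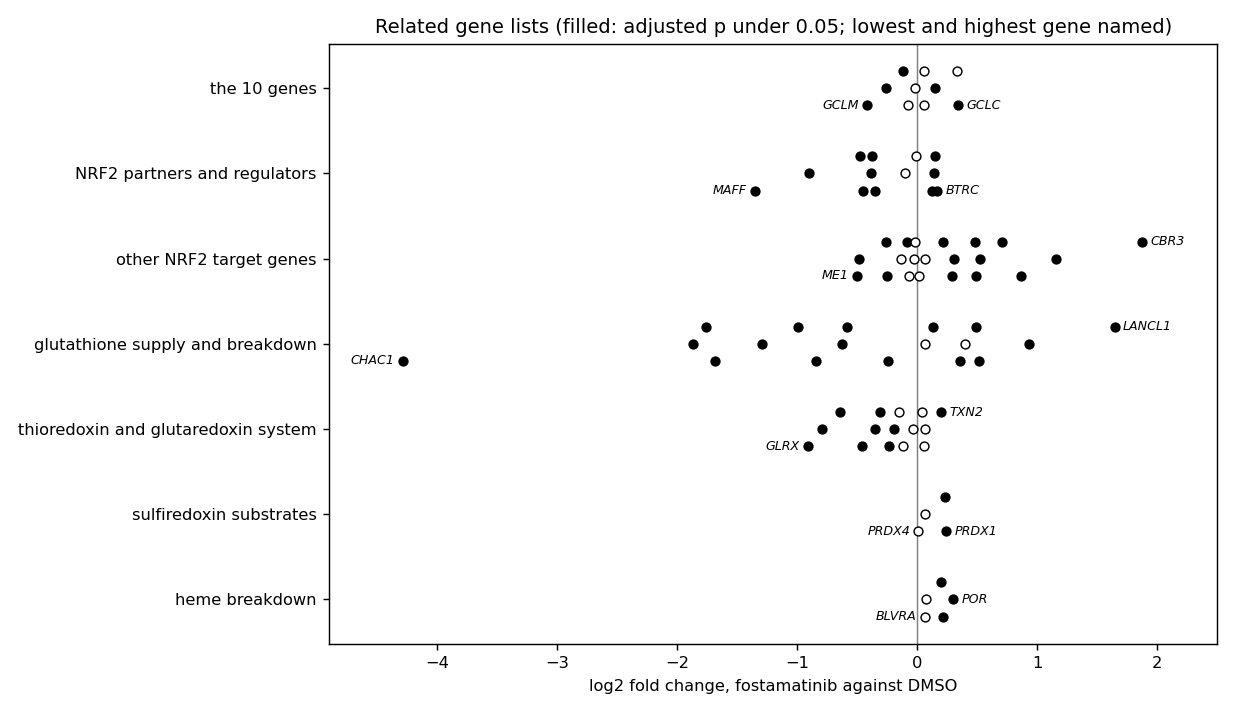
Log2 fold change of every tested gene of the 10 genes and of 6 related lists, 1 point a gene (filled: adjusted p under 0.05), with the lowest and highest gene of each list named. The 10 genes lie between -0.42 and 0.34, while the glutathione supply and breakdown list reaches from -4.28 for CHAC1 to 1.64 for LANCL1. CBR3, the highest of the target genes, rests on means of 2.67 and 7.0 reads.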

How the data were processed

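RNA-seq of Huh7SR cells treated with fostamatinib (n = 3) or DMSO (n = 3) was analysed, with groups and replicate numbers from the sample titles. The authors aligned poly(A) RNA reads with HISAT (hg19) and obtained gene counts with featureCounts and GENCODE version 22. They left out genes that in both groups lay under 5 reads in 2 or more of the 3 samples, applied TMM scaling and deposited log2 CPM values, 1 sample per file. A ribosomal RNA gene listed on several rows with the same values was used once (6 rows dropped).

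The deposited log2 CPM were analysed in limma 3.58.1 (R 4.3.3), using lmFit, eBayes with trend, treatment as the only coefficient and Benjamini-Hochberg adjustment over all genes. The script was tested on simulated data. Tables were made with Python 3.11.15 and pandas 2.3.3. Low genes have understated fold changes because 0.5 is added to each count. Coordinates and transcript lengths are from GENCODE version 44 on GRCh37 (the build of hg19), which held 98.7% of the identifiers. Promoter sequences are RefSeq's, on GRCh38.p14. Named were the 10 genes, in each list up to 3 rises and 3 falls with the largest change (adjusted p under 0.05, average of 50 reads or more in the higher group), and the 3 genes nearest to NFE2L2. Outside this rule, and chosen after their values were seen, are NQO1, CTH, CBS, GGT1, GGT7, GSS, CBR3, the genes of the short lists that did not pass (PRDX3, PRDX4, BLVRA, ALAS1) and the cell type markers given as examples. The members and lists were chosen with earlier results of these data known. Alternatives were other models, scalings, filters and pseudocounts, the replicate block and the omission of each sample.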

Additional observations from a re-analysis of the deposited data

How the results depend on the processing

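The counts of called genes and the log2 fold changes of the 10 genes were compared with their alternatives 247 times. None of these changed direction, 235 kept their side of the threshold (or stayed within 1.5 times for a count), 6 counts moved further and 6 gene values lost their call. The 3 ratios kept their sign, but their exact test cannot pass the threshold and scaling cancels in them, so they are not counted. The median over all genes, 0.0015, lies so near 0 that its sign changes, to -0.0096 with library size alone, for example. Without limma's mean-variance trend 3 of the 10 genes were called instead of 5, and 1 instead of 2 was higher, since KEAP1 (adjusted p = 0.103) and GSR (adjusted p = 0.0912) no longer passed. With any 1 of the 6 samples omitted, 3 to 5 of the 10 genes were called, 1 to 2 of them higher, and KEAP1 and GSR were again the genes lost. The cause was not tested. GCLC, GCLM and TXN passed under all 13 alternatives, with log2 fold changes of 0.33 to 0.35, -0.48 to -0.36 and -0.29 to -0.24. NFE2L2, HMOX1, TXNRD1, SRXN1 and OSGIN1 passed under none of them. Same-numbered samples of the groups share only a number: their deviations from the group means correlated at 0.034, -0.044 and 0.041 over 11485 genes. With the replicate number as a block 5 of the 10 genes were called, as without it, and 7977 genes in all against 7794. The 3 samples a group limit the exact test of the ratios, and the 13 to 18 reads of SRXN1 limit that gene.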
